A study of Mus musculus with 6 samples.

Results

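Target genes of the tumour suppressor p53, the GADD45 family included, were followed in sorted mouse haematopoietic stem cells. These 10 genes are Mdm2, Ccng1, Plk2, Phlda3, Zmat3, Btg2, Trp53inp1, Gadd45a, Gadd45b and Gadd45g, chosen by symbol as p53 targets other than inhibitors of cyclin-dependent kinases and members of the BCL2 family. All 10 symbols were found, each in 1 row, among the 52183 genes of the deposited table. The cells came from the bone marrow of female mice aged 4 months, with 3 control libraries and 3 whose label is Thbs1 knockout. The label names a knockout of the gene for thrombospondin 1, a secreted matrix protein that binds CD47 and CD36. The labels give neither the strain, the cell type or part of the gene deleted, nor whether a library holds 1 animal or a pool, so p-values measure only the spread between libraries, which may be technical.

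p53, encoded by Trp53, is a transcription factor that accumulates after DNA damage and other stress and switches on genes that halt the cell cycle, repair DNA or kill the cell. Mdm2 and Ccng1 feed back negatively on p53 itself. Among the other genes are ones that act on survival signals, messenger RNA decay, autophagy or stress kinases, and Trp53inp1 also promotes p53 activity. In haematopoietic stem cells p53 is known for its part in quiescence and in the response to irradiation. Several of the 10 genes, Plk2, Btg2 and the GADD45 genes among them, are also induced by growth factors and stress without p53.

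Levels are in FPKM, a unit that divides the fragments of a gene by its exon length and by the library's depth, so that levels of genes can be set side by side. The steps of the values correspond to depths of 22730000 to 30890000 reads. Thbs1 itself measured 4.12, 13.8 and 2.33 FPKM across the controls, and 10.8, 8.5 and 7.68 FPKM where the label is knockout. It was thus not lower in the libraries labelled knockout, and every direction below follows the labels alone. The 12 stem cell markers checked, such as Procr and Mecom, were all expressed and summed to between 743 and 847 FPKM in every library. A limma unadjusted p under 0.05 was reached by 2 higher, Procr and Fgd5, and 3 lower, Ly6a, Slamf1 and Hlf. Over all tested genes 16.4% reached it in either direction. The groups did not overlap in 3 markers that were higher, as in 12.6% of all tested genes. They also did not overlap in 4 that were lower, a direction whose share over all tested genes was not computed. Of the 12, Ly6a alone was called, lower in the libraries labelled knockout. The Ly6a call was lost with the replicate block (limma adjusted p = 0.0782), no filter (0.21) and no trend (0.0931), and without control library 2 or 3 or library 2 or 3 labelled knockout (0.0833 to 0.104). Of 13 lymphoid markers 11 stayed under 1 FPKM in every library, and of 12 granulocyte and monocyte markers 7 did. In bulk samples of this kind, fewer cells of a type and less RNA per cell cannot be told apart.

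The promoters of 8 of the 10 genes, taken as 250 bases before the RefSeq start on GRCm38.p6, were searched on both strands for the p53 half-site, for the cyclic AMP response element TGACGTCA (CRE), CACGTG (the E-box), the CCAAT box and the TATA box TATAAA. A p53 half-site was present in 3 of them: GAACTTGCCT at position -186 of Mdm2, GGGCAAGCCT at -185 of Ccng1 and GGGCTAGCCC at -40 of Gadd45a, against 7.12% of 32817 promoters of the same length. A pair of half-sites within 13 bases of each other makes the full p53 response element. It was found in 0 of the 8 and in 0.064% of all promoters. Sequence after the start, introns included, was not searched, so these counts do not show that a gene lacks the element. The CRE was present in Plk2 at position -62 and in Btg2 at -166, and in 1.55% of all promoters. Gadd45b and Gadd45g shared an arrangement of E-box, CCAAT and TATA box in this order towards the start. These elements were held by 6.02%, 33.8% and 12.4% of all promoters, and in all CCAAT was present in 6 of the 8 genes. A match describes the sequence and is not evidence of binding. Shown are the promoters of the pair that share a CRE, of the GADD45 pair with a TATA box, and of Phlda3, whose promoter held none of these motifs, with matches in capitals. No match overlapped another in the promoters shown.
Plk2, chr13:110394794-110395043, plus strand: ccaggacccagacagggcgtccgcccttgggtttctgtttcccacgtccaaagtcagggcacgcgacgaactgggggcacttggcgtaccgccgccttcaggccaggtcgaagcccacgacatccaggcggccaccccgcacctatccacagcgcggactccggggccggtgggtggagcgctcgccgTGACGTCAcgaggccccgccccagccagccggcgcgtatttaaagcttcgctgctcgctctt
Btg2, chr1:134079156-134079405, minus strand: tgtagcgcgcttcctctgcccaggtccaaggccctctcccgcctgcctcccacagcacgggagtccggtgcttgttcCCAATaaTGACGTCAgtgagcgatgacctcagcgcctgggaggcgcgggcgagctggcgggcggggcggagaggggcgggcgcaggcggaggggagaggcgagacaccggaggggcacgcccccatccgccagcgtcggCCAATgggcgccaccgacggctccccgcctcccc
Phlda3, chr1:135765835-135766084, plus strand: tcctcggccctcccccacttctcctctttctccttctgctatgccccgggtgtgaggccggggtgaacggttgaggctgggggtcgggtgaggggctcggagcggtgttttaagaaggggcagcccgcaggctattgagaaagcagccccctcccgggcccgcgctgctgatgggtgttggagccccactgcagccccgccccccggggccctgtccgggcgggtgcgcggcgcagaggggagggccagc
Gadd45b, chr10:80929841-80930090, plus strand: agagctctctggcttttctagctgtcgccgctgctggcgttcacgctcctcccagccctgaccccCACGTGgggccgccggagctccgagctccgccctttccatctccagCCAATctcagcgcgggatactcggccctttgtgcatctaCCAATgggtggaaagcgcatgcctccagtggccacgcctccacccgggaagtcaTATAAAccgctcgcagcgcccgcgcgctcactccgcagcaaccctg
Gadd45g, chr13:51846425-51846674, plus strand: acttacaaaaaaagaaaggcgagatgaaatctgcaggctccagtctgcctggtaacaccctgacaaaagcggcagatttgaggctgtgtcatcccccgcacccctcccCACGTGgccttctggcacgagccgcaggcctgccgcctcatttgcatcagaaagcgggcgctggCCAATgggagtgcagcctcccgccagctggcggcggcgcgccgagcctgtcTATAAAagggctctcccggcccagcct

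**Figure D1:**
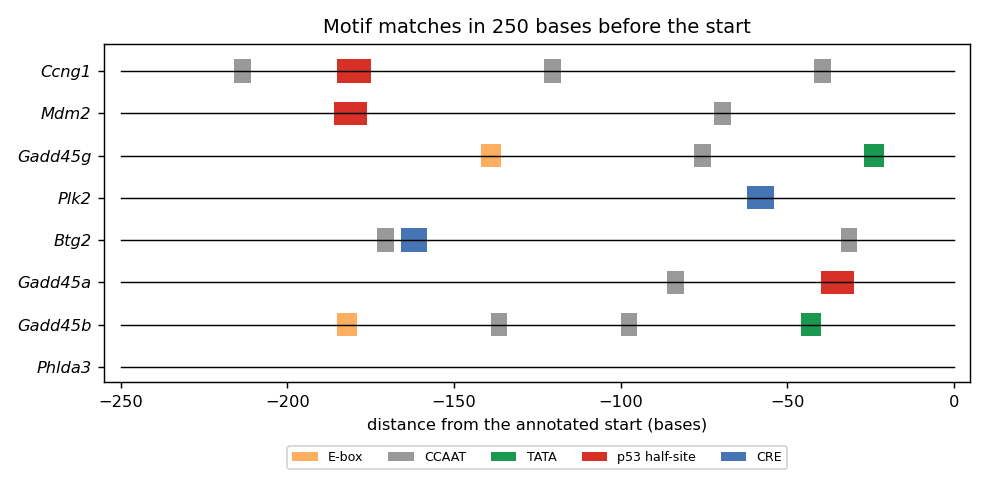
Matches of 5 motifs in 250 bases before the start of 8 genes, with the distance from the annotated start in bases on the x axis and 1 line per gene. Only Plk2 and Btg2 hold a CRE, only Gadd45b and Gadd45g a TATA box, and Phlda3 holds none of the 5.

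In levels, the negative-feedback genes Ccng1 and Mdm2 led. Ccng1 averaged 30.0 FPKM over the 6 libraries and Mdm2 23.0, which placed them above 80.8% and 75.2% of tested genes. Gadd45g followed at 11.6, then Plk2 at 8.35, Btg2 at 6.91, Gadd45a at 6.67, Trp53inp1 at 6.58, Gadd45b at 4.00, Phlda3 at 3.57 and Zmat3 at 0.660 FPKM. The ranges of Ccng1, Mdm2 and Gadd45g over the libraries did not overlap one another, nor did those of Phlda3 and Zmat3. From Gadd45g down to Phlda3 each gene overlapped its neighbour in this order, so Plk2, Btg2, Gadd45a and Trp53inp1 were not separated by their spread. Phlda3 varied most between libraries, by 3.28-fold from the lowest to the highest, followed by Plk2 with 2.30-fold.

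**Figure D2:**
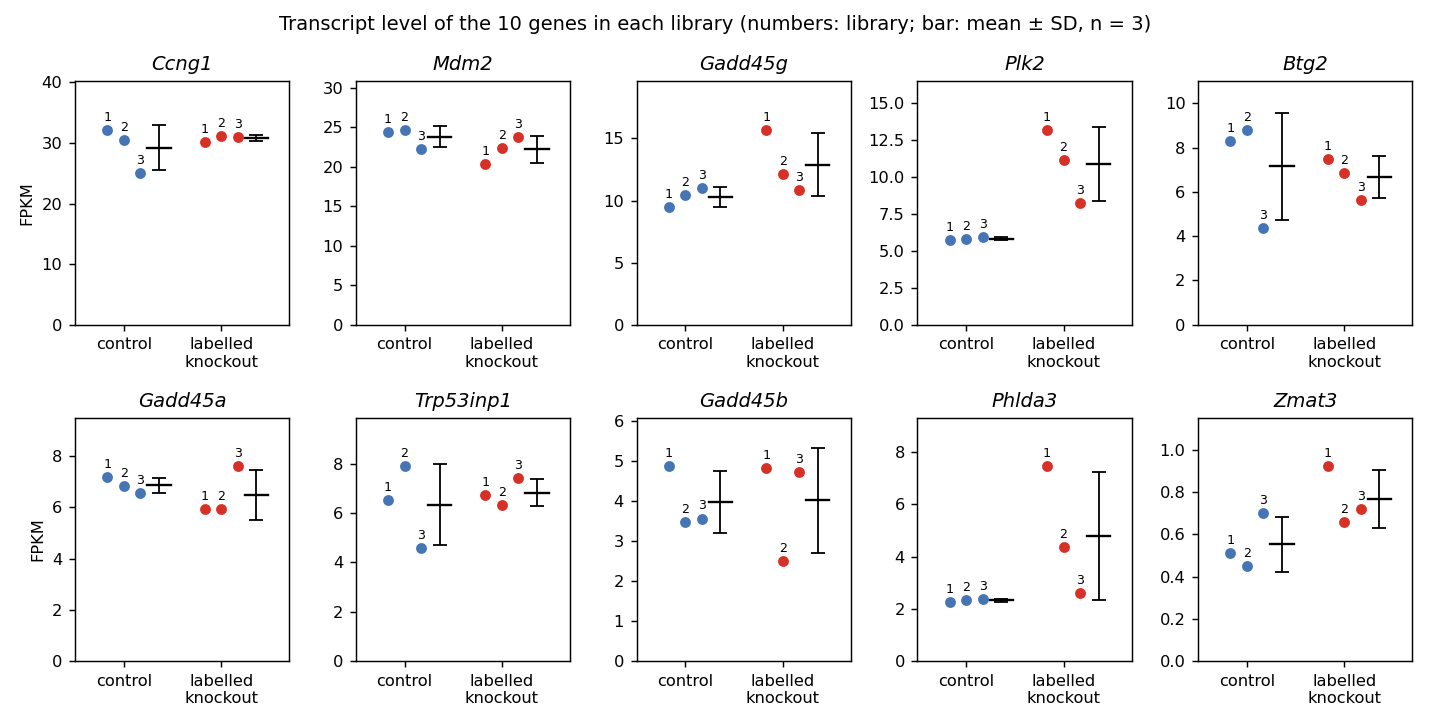
FPKM of the 10 genes in the 3 control and the 3 libraries labelled knockout, 1 panel per gene in order of mean level, with library numbers beside the points and the mean ± SD (n = 3) to their right. Plk2 and Phlda3 are higher in every library labelled knockout than in any control, while the groups of the other 8 genes overlap.

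Of the 10 genes, 9 had at least 1 FPKM in at least 3 libraries and were tested with limma on log2(FPKM + 1) among 12555 genes. A gene is called when its p-value, adjusted over all of these genes, is under 0.05. Plk2 was the 1 gene called higher, and 0 were called lower by limma. Over all tested genes 0.566% were called higher and 0.996% lower. An unadjusted p under 0.05 was reached by 2 of the 9, Plk2 and Phlda3, both higher, where 8.92% of all tested genes reached it in that direction and 16.4% in either. In these same 2 genes the groups did not overlap, as in 12.6% of all tested genes in that direction. The median log2 change of the 9 was 0.08, with 5 above and 4 below 0, beside a median of 0.01 over all tested genes. Rescaled so that each library sums to the same total (TPM), all 9 lay above 0 with a median of 0.28, beside 0.21 over the same 12555 genes.

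Plk2 (ENSMUSG00000021701, chromosome 13, 110395046 to 110400844, GRCm38) encodes polo-like kinase 2, a serine-threonine kinase with roles in centriole duplication and the stress response. In the controls it measured 5.75, 5.78 and 5.95 FPKM, against 13.2, 11.2 and 8.24 FPKM in the libraries labelled knockout. All libraries labelled knockout lay above the controls, which differed among themselves by far less. The mean rose from 5.83 ± 0.108 to 10.9 ± 2.50 FPKM (SD, n = 3 each), 1.87-fold, with a log2 change of 0.78 ± 0.15 SE, a 95% interval of 0.45 to 1.11 and a limma adjusted p of 0.0377. Each Plk2 value rested on 600 to 1833 reads. Counting alone gives, on average, a wider spread at such read numbers than the controls showed. The call rested on the setting: it held in 6 of 9 other fits with all libraries and in 1 of 6 with a library left out, while the log2 change stayed between 0.64 and 1.03. It was lost with no filter on low genes (limma adjusted p = 0.227), without the intensity trend (0.0867), with the replicate number as a block (0.0697), and without each control library or without library 1 or 2 labelled knockout (0.0829 to 0.122).

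The other polo-like kinases did not pass the test. Plk3, a stress-responsive relative, stood at 2.51, 1.83 and 2.44 FPKM (controls) and 4.04, 2.70 and 3.13 FPKM (labelled knockout), again without overlap (log2 change 0.39 ± 0.16, limma adjusted p = 0.277). Plk1, the kinase that drives mitosis, averaged 22.6 ± 2.63 and 23.5 ± 3.08 FPKM (SD, n = 3 each), and Plk4, the initiator of centriole duplication, 6.59 ± 0.934 and 7.0 ± 1.45 FPKM. Their groups overlapped.

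The genes whose levels ran closest to Plk2 over the 6 libraries, by the mean absolute difference of centred log2(FPKM + 1) values among protein-coding genes, were Efna1, Tmem158, Hspa8, Hsph1 and Gstm2, with differences of 0.083 to 0.123. Efna1, a membrane-bound ligand of Eph receptors, rose from 9.67 ± 0.454 to 16.7 ± 1.74 FPKM (limma adjusted p = 0.00771, and 0.0874 with no filter). Hspa8 and Hsph1 encode chaperones and Gstm2 a glutathione transferase. A likeness over so few libraries follows largely from the difference between the groups, which all 5 share with Plk2.

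Phlda3 (ENSMUSG00000041801, chromosome 1, 135766119 to 135769136) encodes a small pleckstrin-homology protein that competes with AKT for membrane lipids. Its controls held 2.27, 2.36 and 2.37 FPKM, the libraries labelled knockout 7.45, 4.36 and 2.61 FPKM. The controls were almost alike, library 1 labelled knockout was far above them, and library 3 exceeded the highest control only slightly. The means were 2.33 ± 0.0551 and 4.81 ± 2.45 FPKM (SD, n = 3 each), a ratio of 2.06, with a log2 change of 0.71 ± 0.26 SE and a 95% interval of 0.13 to 1.29. This did not pass the test (limma adjusted p = 0.209). Each value rested on 84 to 359 reads. Counting so few reads gives, on average, a wider spread than the controls showed, so their likeness does not measure low variation. Phlda3 passed in 0 of 14 other settings, and its log2 change fell to 0.40 without library 1 labelled knockout. Its relative Phlda1 stayed under 1 FPKM in every library. Of 14 tested paralogues of the 10 genes, 0 were called by limma and 2, Plk3 and Tob1, had an unadjusted p under 0.05. Over all tested genes 16.4% did, in either direction.

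The negative-feedback genes did not pass the test. Mdm2 (chromosome 10, 117688875 to 117710758) encodes the ubiquitin ligase that degrades p53. Control values were 24.5, 24.7 and 22.3 FPKM, and those of the libraries labelled knockout 20.4, 22.4 and 23.8 FPKM. The groups overlapped, and the log2 change of -0.10 had a 95% interval of -0.29 to 0.09 (limma adjusted p = 0.616). Ccng1 (chromosome 11, 40748552 to 40755311), which encodes cyclin G1, a recruiter of phosphatase 2A to Mdm2, was read at 32.2, 30.4 and 25.1 FPKM in the controls, against 30.2, 31.1 and 30.9 FPKM in those labelled knockout. Control library 3 stood below the other 5, and the log2 change was 0.08 with an interval of -0.13 to 0.29. The values rested on 2578 to 3216 reads per library for Mdm2 and 2003 to 3275 for Ccng1. Trp53 averaged 94.9 ± 6.62 and 102 ± 3.68 FPKM (SD, n = 3 each), and Mdm4, the relative of Mdm2 that holds p53 inactive, 6.67 ± 0.745 and 6.82 ± 0.848 FPKM. Ccng2, the second cyclin G gene, averaged 20.01 ± 1.79 and 20.9 ± 0.823 FPKM. None of these 3 genes passed the limma test over all genes.

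**Figure D3:**
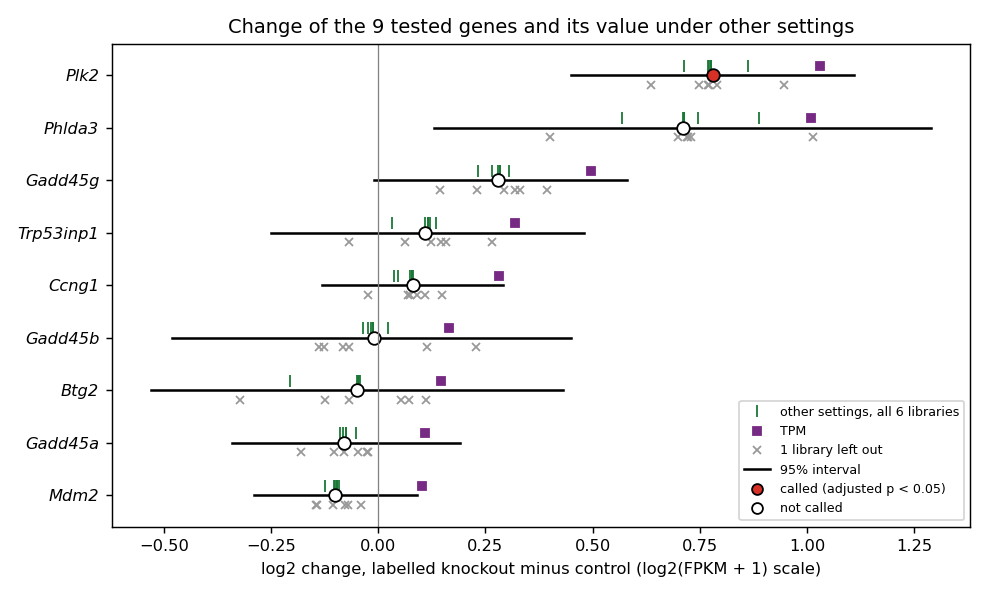
Log2 change of the 9 tested genes, libraries labelled knockout minus control, on the log2(FPKM + 1) scale, with its 95% interval (line), its value in other fits with all libraries (ticks, with TPM as squares) and with 1 library left out (crosses). Plk2 alone is called, at 0.78, and TPM moves every gene to the right.

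The GADD45 proteins are small acidic stress sensors that bind the kinase MAP3K4, the replication clamp PCNA and the CDK1-cyclin B1 complex. Gadd45g (ENSMUSG00000021453, chromosome 13, 51846678 to 51848468) was read at 9.46, 10.4 and 11 FPKM (controls) and 15.7, 12.1 and 10.8 FPKM (labelled knockout). Library 1 labelled knockout stood above all others, and library 3 lay within the control range. Its log2 change was 0.28 ± 0.13 SE with a 95% interval of -0.01 to 0.58 (limma adjusted p = 0.319). As TPM, which shifts the median of the 15277 genes then tested to 0.19, Gadd45g had a log2 change of 0.50 and passed (limma adjusted p = 0.0408).

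Gadd45a (chromosome 6, 67035096 to 67037457), the family member most directly under p53, was read at 7.17, 6.82 and 6.57 FPKM in the controls, against 5.94, 5.92 and 7.59 FPKM in those labelled knockout. Gadd45b (chromosome 10, 80930073 to 80932204), a target of NF-kB and TGF-beta, was read at 4.87, 3.49 and 3.57 FPKM and at 4.83, 2.51 and 4.74 FPKM. Neither separated the groups, and their intervals were -0.34 to 0.19 and -0.48 to 0.45 on the log2 scale. With 104 to 237 reads per library, the interval of Gadd45b still allows a change in either direction of the size seen in Gadd45g. Gadd45a shares its locus with E230016M11Rik on the other strand, a noncoding gene at or under 0.59 FPKM in every library, and the kit does not mark strand.

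In every library Gadd45g was the most abundant of the 3 genes and Gadd45b the least. Gadd45g made up 48.8% ± 4.22 of their summed FPKM in the controls and 55% ± 7.16 in the libraries labelled knockout (SD, n = 3 each), with 59.3%, 59.0% and 46.7% in the latter. Gadd45a made up 32.4% ± 1.21 and 28.0% ± 5.22, and Gadd45b 18.8% ± 3.34 and 17% ± 4.27. The sum of the 3 was 21.5, 20.7 and 21.1 FPKM in the controls and 26.5, 20.5 and 23.1 FPKM in the libraries labelled knockout, which overlapped. Whether Gadd45g differed from the other two genes in its change was not tested.

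**Figure D4:**
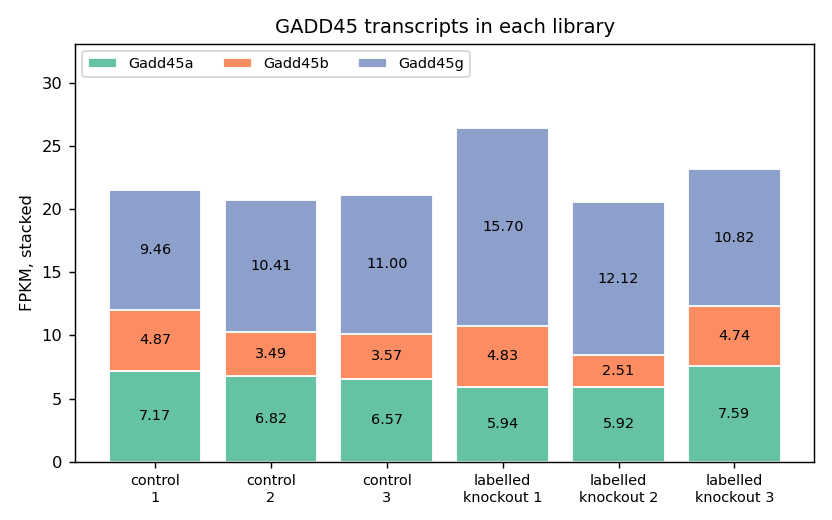
FPKM of Gadd45a, Gadd45b and Gadd45g stacked for each of the 6 libraries, with each value printed in its segment. Gadd45g is the largest segment everywhere and reaches 15.7 FPKM in library 1 labelled knockout, while the controls sum to between 20.7 and 21.5 FPKM.

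Among 20 partners of GADD45 proteins, all tested, 0 were called higher by limma (2 at an unadjusted p under 0.05) and 1 was called lower. Over all tested genes 8.92% reached that p as higher, and 0.996% were called lower. Pcna, the replication clamp, fell from 129 ± 20 to 84.5 ± 6.0 FPKM (SD, n = 3 each, log2 change -0.60, limma adjusted p = 0.0309). It lies on chromosome 2 (132249162 to 132253314), as does Thbs1, and any part of that position in the change was not tested. The call was kept without control library 2 or 3 (limma adjusted p = 0.0384 and 0.0387) and lost without control library 1 or any library labelled knockout (0.0522 to 0.0863), with no filter (0.22) and without trend (0.0981). Reads counted on its processed pseudogene Pcna-ps2 (chromosome 19, 9283380 to 9284160) moved the other way, from 3.41 ± 0.590 to 45.6 ± 1.99 FPKM (limma adjusted p = 9.9e-07). Reads of such copies can be split between loci, which was not tested. Summed over both loci, there were 313 ± 48.2 reads for each 1000000 reads of depth in the controls and 238 ± 14.6 in the libraries labelled knockout. For Pcna alone there were 310 ± 48 and 203 ± 14.4. The sum falls less than Pcna alone wherever Pcna-ps2 rises, so it does not decide whether reads were split. Map2k3, a kinase upstream of p38, averaged 42.0 ± 0.489 and 51.0 ± 1.66 FPKM (limma adjusted p = 0.0800), and Taf12, a TFIID subunit, 15.4 ± 0.640 and 18.5 ± 0.773 FPKM (limma adjusted p = 0.158).

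Btg2 (chromosome 1, 134075170 to 134079120) encodes an antiproliferative protein that recruits the CCR4-NOT deadenylase to messenger RNAs. In the controls it measured 8.29, 8.81 and 4.37 FPKM, against 7.50, 6.86 and 5.65 FPKM in the libraries labelled knockout. Control library 3 was the lowest of all 6, and the libraries labelled knockout lay inside the control range. The log2 change was -0.05 with a 95% interval of -0.53 to 0.43. Of 15 CCR4-NOT subunits and partners, 0 were called by limma. An unadjusted p under 0.05 was reached by 4, 2 higher and 2 lower, led by Cnot10 (13.7 ± 0.485 and 17.8 ± 1.54 FPKM). Over all tested genes 16.4% reached it in either direction. Tob1, a BTG-family antiproliferative gene, was read between 20.7 and 22.0 FPKM in the controls and between 25.6 and 26.0 FPKM in the libraries labelled knockout without being called (limma adjusted p = 0.103). Pabpc1, the poly(A)-binding protein, averaged 131 ± 7.44 and 110 ± 6.46 FPKM. The relatives Btg1, Btg3 and Tob2 were not called.

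Trp53inp1 (chromosome 4, 11156431 to 11174379) encodes a stress protein that promotes autophagy and p53 activity. It was read at 6.54, 7.88 and 4.6 FPKM (controls) and 6.72, 6.34 and 7.40 FPKM (labelled knockout), with control library 3 again the lowest (log2 change 0.11, 95% interval -0.25 to 0.48). Zmat3 (chromosome 3, 32334792 to 32366014), a zinc-finger RNA-binding protein that regulates splicing, was read at 0.51, 0.45 and 0.70 FPKM in the controls, against 0.92, 0.66 and 0.72 FPKM in those labelled knockout. It lay under the filter and was not tested with the others. Without a filter its log2 change was 0.19 (limma adjusted p = 0.704). Because its exons span 11435 bases, these low levels still rest on 119 to 325 reads.

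Library 1 labelled knockout was the highest of its group in 6 of the 10 genes, and of all 6 libraries in 4, namely Plk2, Phlda3, Gadd45g and Zmat3. It was the highest of its group in 37.4% of all tested genes, and it was the deepest library. Control library 3 was the lowest of its group in 5 genes, Btg2, Ccng1, Gadd45a, Mdm2 and Trp53inp1. It was the highest of its group in 4, Gadd45g, Phlda3, Plk2 and Zmat3, and it was the shallowest library. The share over all tested genes was not computed for the controls. The part of depth in these orders was not tested.

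Markers of other blood cell types were checked beside these values. All 7 megakaryocyte markers had a log2 change below 0 on the FPKM scale, and 3 of them as TPM, with a summed level of 400 to 502 FPKM in the controls and 273 to 383 FPKM in the libraries labelled knockout, and Selp was called. Pf4, with means of 315 and 189 FPKM, made up much of that sum. The 13 lymphoid markers summed to 101 to 128 and 76.7 to 87.1 FPKM, with Nkg7 called. Nkg7 itself, with means of 88.6 and 54.6 FPKM, made up much of this sum, so its fall is not a separate observation. The 9 erythroid markers summed to 95.7 to 116 and 60.9 to 129 FPKM, with Hbb-bt called. Lyz2, with means of 367 and 345 FPKM, made up much of the granulocyte and monocyte sum that follows. The 12 granulocyte and monocyte markers summed to 415 to 481 and 387 to 432 FPKM, the 7 macrophage and dendritic markers to 18.5 to 20.6 and 12.3 to 16.4 FPKM, and the 10 endothelial and stromal markers to 20.6 to 24 and 21.1 to 22.6 FPKM, with 0 members called by limma. Of the 4, 3 and 5 tested members of these last 3 lists, 1, 1 and 3 had an unadjusted p under 0.05. Over all tested genes 16.4% did. No marker of these lists was at 0 in all libraries, but many were low. Besides the lymphoid and granulocyte and monocyte markers counted above, some of 3 more lists stayed under 1 FPKM in every library. These were 1 erythroid, 4 macrophage and dendritic and 5 endothelial and stromal markers. The Nkg7 call was lost with the replicate block (limma adjusted p = 0.0829), no filter (0.237) and no trend (0.101), and without control library 2 or 3 or library 2 or 3 labelled knockout (0.0935 to 0.113). The Selp call was lost with no filter (0.15), with no trend (0.0571), and without control library 2 or 3 or library 2 labelled knockout (0.0512 to 0.062), and that of Hbb-bt with no filter (0.0874). The part of these cell types in the levels of Plk2 and Phlda3 was not tested.

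The list of other p53 targets had 1 gene called. It was not sorted by whether p53 raises or lowers a gene. Of 54 found, 45 were tested, 0 were called higher by limma and 1 was called lower. An unadjusted p under 0.05 was reached by 8, 5 of them higher. Over all tested genes 16.4% reached it in either direction and 8.92% as higher. The median log2 change of the 45 was -0.01, with 22 above and 23 below 0, beside 0.01 over all tested genes. As TPM, 33 of the 45 lay above 0 with a median of 0.18, beside 0.21 over all tested genes, and 7 were called higher. The called gene was Ccnk, the cyclin partner of CDK12 in transcription elongation, which fell from 6.68 ± 0.185 to 4.23 ± 0.119 FPKM (SD, n = 3 each, log2 change -0.55, limma adjusted p = 0.0332). It lost the call without each library in turn (limma adjusted p = 0.0718 to 0.113), with no filter (0.123), with the replicate block (0.11) and as TPM (0.0522).

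Cdkn1a, which encodes the cell-cycle inhibitor p21 and is the best-known p53 target, was read at 1.89, 1.81 and 1.62 FPKM (controls) and 2.10, 2.32 and 1.5 FPKM (labelled knockout), which overlapped. Bbc3, which encodes the killer protein PUMA, was read at 8.24, 6.69 and 6.39 FPKM and at 11.6, 10.3 and 9.91 FPKM. All its libraries labelled knockout lay above the controls, and it did not pass the test (log2 change 0.52 ± 0.11 SE, limma adjusted p = 0.0645). It passed where a mean of at least 5 FPKM was required (0.0370) and as TPM (0.0157). Bax, another killer gene, averaged 32.1 ± 4.19 and 36.3 ± 3.93 FPKM, and Pmaip1, which encodes NOXA, stayed at or under 0.43 FPKM. Aen, a p53-induced nuclease gene, averaged 8.65 ± 0.650 and 10.8 ± 0.115 FPKM (SD, n = 3 each), Wrap53 15.0 ± 0.433 and 17.7 ± 0.765, Triap1 29.1 ± 1.68 and 33.6 ± 2.89 and the thiamine transporter gene Slc19a2 5.39 ± 0.851 and 6.89 ± 0.782, none of them called. Sp1, a general transcription factor, stood at 12.3 ± 0.988 and 9.56 ± 0.645 FPKM and Trp53i11 at 25.6 ± 1.42 and 21.0 ± 2.20 FPKM, also not called.

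Among 21 tested regulators of p53, 0 were called by limma and 3 had an unadjusted p under 0.05. These were Trim24, a ubiquitin ligase for p53 (3.63 ± 0.164 and 2.15 ± 0.262 FPKM, limma adjusted p = 0.0800), Chek2, the checkpoint kinase that phosphorylates p53 (26.5 ± 0.676 and 32.9 ± 1.88 FPKM, limma adjusted p = 0.0857), and the RNA helicase gene Ddx5 (128 ± 3.35 and 113 ± 5.31 FPKM). The groups did not overlap in any of the 3, but these were picked by their p-values, so this adds little. Over all tested genes 16.4% had an unadjusted p under 0.05, a share to set beside this list and the next. Of 15 tested DNA damage and repair genes, 0 were called by limma and 3 had an unadjusted p under 0.05, Xrcc1, a scaffold of single-strand break repair (11.5 ± 0.636 and 14.4 ± 0.210 FPKM), Ung, the uracil glycosylase (6.04 ± 0.836 and 4.27 ± 0.329 FPKM), and Ogg1, the 8-oxoguanine glycosylase (12.0 ± 0.536 and 10.3 ± 0.565 FPKM). Of 18 cell division genes, Pcna alone was called, and the next smallest p-values were those of Tyms and Ccne2 with log2 changes of 0.17 and 0.25.

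Immediate early genes, with which Plk2 and Btg2 share induction by growth factors and stress, had 2 genes called higher and 0 lower among 20 tested, where 0.566% of all tested genes were called higher. An unadjusted p under 0.05 was reached by 8 higher and 1 lower, where 8.92% of all tested genes reached it as higher. These 20 genes had a median of 0.14 in log2 change, beside 0.01 over all tested genes, and 0.34 beside 0.21 as TPM. The list did not move as one, with 14 above and 6 below 0 on the FPKM scale. Those below were Dusp5 (-0.45), Socs3 (-0.388), Fos (-0.212), Zfp36 (-0.116), Ier5 (-0.094) and Ier3 (-0.058). Myc rose from 249 ± 24.1 to 403 ± 18.3 FPKM and Egr1 from 10.5 ± 1.24 to 16.7 ± 1.76 FPKM (SD, n = 3 each, limma adjusted p = 0.00446 and 0.0286). Dusp2, a phosphatase gene of this list, averaged 42.8 ± 2.19 and 54.6 ± 6.81 FPKM without being called. The summed level of the list was 534 to 598 FPKM in the controls and 740 to 791 FPKM in the libraries labelled knockout. Myc made up much of both sums. Egr1 kept its call without control library 1 (limma adjusted p = 0.0293) and lost it without any other library (0.0519 to 0.104), with the replicate block (0.0721), without trend (0.0708) and with no filter (0.17). Myc lost its call with no filter (0.108) and kept it in the other 14 alternatives. The part of the changes in this list in the level of Plk2 was not tested.

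**Figure D5:**
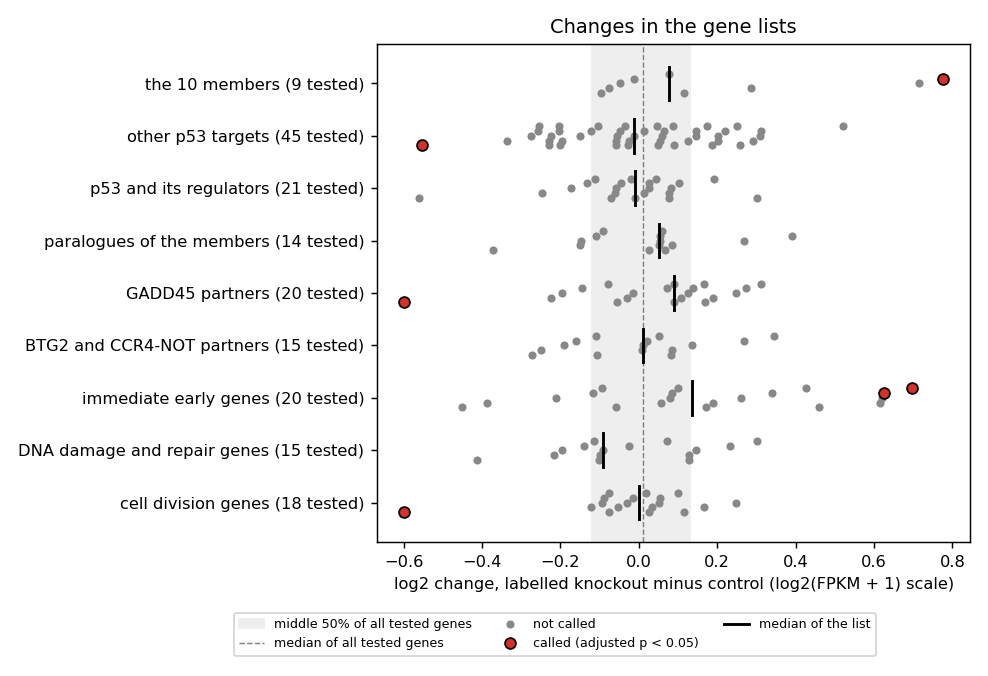
Log2 change of each tested gene in 9 gene lists, libraries labelled knockout minus control, on the log2(FPKM + 1) scale, with called genes in red, list medians as black bars and the middle 50% of all tested genes shaded. Other p53 targets centre on -0.01 and reach at most 0.52. Plk2 and Phlda3, which was not called, lie above that value, as do the immediate early genes Myc, Egr1, Fosl2 and Nr4a1.

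In position and sequence the 10 genes shared little. They lie on 7 chromosomes, none on chromosome 2, where Thbs1 lies. Phlda3 and Btg2 are 1.69 Mb apart on chromosome 1, and neither Btg2 nor Phlda3 was called. Plk2 and Gadd45g lie 58.5 Mb apart on chromosome 13. The heptamer TATTTAT, a core of AU-rich decay elements, was present in the longest annotated 3′ UTR of 6 of the 10 genes, against 27.6% of 21007 coding genes, a share that rises with the length of the UTR. Plk2 held 2 copies within 620 bases, a length at which 16.6% of genes hold any. Zmat3 held none within 6692 bases, a length at which 75.6% do, and the shorter UTRs of Phlda3, Gadd45b and Gadd45g, where 18.7%, 15.1% and 12.4% of genes of like length hold one, held none either.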

How the data were processed

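RNA of sorted bone marrow stem cells was measured in 6 libraries made with a full-length, poly(A)-primed kit that does not mark strand. Per the submitters' processing notes, FastQC 0.11.5, STAR and edgeR were used on GRCm38 (mm10), with no role named for each. The deposited values are FPKM made by the authors, with 2 decimals; which annotation they counted on, and how, is not given in the sources used here. All 52183 identifiers matched GENCODE M21, which gave positions and exon lengths. Depth was taken from the FPKM steps of genes with at most 400 bp of exon, where 99.4% to 99.8% of values were whole within 0.1 read. Read numbers follow from it, and PCR copies are not independent molecules.

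The 12555 genes that reached 1 FPKM or more in 3 libraries or more were tested on log2(FPKM + 1), a scale that understates changes of low genes, with limma 3.58.1 in R 4.3.3 (eBayes with trend, group as the single term, two-sided, Benjamini-Hochberg adjustment, threshold 0.05). On simulated normal data with these means and variances, recovery was 73.3% for 60 genes given a 1.5-fold change and 93.2% for 73 given a 2-fold change. It was 100% for 67 given a 4-fold change, with 14 false calls among 193. These folds were set on the log2(FPKM + 1) scale, in genes whose mean on it exceeded 1. The same fold in FPKM is a smaller step on that scale for a low gene, so these shares do not hold for it. The members and gene lists were chosen with earlier results of these data known. Named genes are the members, every called gene of a list and otherwise its 3 smallest unadjusted p (8 for p53 targets). Thbs1, Trp53, Mdm4, Cdkn1a, Bax, Bbc3, Pmaip1 and the immediate early genes below 0 are named too. For lists of other cell types and paralogues, those on which no result turns are given as counts.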

Additional observations from a re-analysis of the deposited data

How the results depend on the processing

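The fit was repeated with other scalings (TPM, median of ratios, quantiles), other filters (none, or 5 FPKM on average), a pseudocount of 0.1, array weights, no trend, a replicate block, and each library left out in turn. Of 133 values of the tested members under these alternatives, 112 kept direction and side of the threshold. The count of members called higher, 1 as reported, was 0 with no filter, without trend and with the replicate block, 2 as TPM, and 0 to 1 with a library left out; the count called lower stayed at 0. The other p53 targets called higher, 0 as reported, were 1 at a mean of at least 5 FPKM and 7 as TPM, and those called lower, 1 as reported, were 0 with no filter, as TPM, with the replicate block and in each fit with a library left out. Over all genes, 71 higher and 125 lower calls became 8 and 16 with no filter, 24 and 65 without trend, and 27 and 54 with the replicate block. Higher calls rose to 112 at a mean of at least 5 FPKM and to 112 with array weights. As TPM there were 2016 higher calls, 94.0% of all calls in place of 36.2%, and 15277 genes were tested. With a library left out there were 16 to 38 higher and 43 to 77 lower calls, with fewer samples. TPM turned the direction of Btg2 (0.146), Gadd45a (0.109), Gadd45b (0.166), Mdm2 (0.101) and Ddx5 (0.029), and quantile normalization that of Gadd45b (0.023). With a library left out, directions turned for Btg2 (-0.323 to 0.111), Gadd45b (-0.138 to 0.228), Ccng1 (-0.024 to 0.149), Trp53inp1 (-0.068 to 0.265), Ccng2 (-0.008 to 0.114), Mdm4 (-0.057 to 0.106), Plk1 (-0.008 to 0.161) and Plk4 (-0.048 to 0.217), with 0 of these called by limma. Replicate numbers did not pair the libraries: deviations of same-numbered libraries correlated at -0.11, 0.037 and -0.079, so the block result is not a paired test. Where no cause is named, the cause was not tested.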
